A study of Homo sapiens with 36 samples.

Results

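Autophagy genes were followed in WiT49 cells, an established line of anaplastic Wilms tumor (a childhood kidney cancer). The cells were exposed to a low dose of actinomycin D (actD), a drug that intercalates into DNA and can block RNA polymerases. The 41 members were chosen by name, from a list of core autophagy genes matched to GENCODE v29 symbols, out of the 58219 genes in the RNA tables and the 43582 in the ribosome footprint tables. The list was proposed with results of these data in view, so its p-values come from fits across all genes and no test was made over the list itself. The members fall into 8 roles: 5 ATG8 family genes, 5 soluble cargo receptors, 3 mitophagy receptors, 5 genes of the ULK initiation complex, 6 of the PI3-kinase complex, 5 PI3P effectors and lipid transfer genes, 10 genes of the conjugation machinery and 2 transcription factors.

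Cells of this one line received 2 nM actD or the vehicle DMSO in complete medium for 6 h or 72 h, or were passaged for 2 weeks through 7-day cycles of 3 days with drug or vehicle and 4 days in plain medium. Total RNA and ribosome footprints (the mRNA pieces that translating ribosomes protect) were each sequenced in 3 libraries per treatment and time point, 36 libraries in all. The labels do not say that the 3 were separate cultures, so p-values measure the spread between these libraries, which may be technical. For RNA at 2 weeks, the treatment in a title contradicts the treatment in the name of the library. Those libraries are called by their names, actd and dmso, and no treatment is assigned to them in the RNA comparison.

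In autophagy, a double membrane grows around cytoplasm and delivers it to the lysosome. The ULK complex starts the process, the PI3-kinase complex marks the membrane with the lipid PI3P, WIPI proteins read that mark, ATG2 and ATG9 proteins supply lipid, and 2 ubiquitin-like conjugation systems attach ATG8 proteins to the growing membrane. ATG8 proteins (the LC3 and GABARAP proteins) then hold cargo receptors, which bind ubiquitin-tagged proteins or mitochondria, while TFEB and TFE3 are transcription factors that drive lysosome and autophagy genes.

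Library totals were 40221994 to 69240041 counts for RNA but 152556 to 1281039 for footprints, of which protein-coding genes held 2.12 to 40.4%. All 41 members together had 37 to 529 footprint counts in a library, and 4 of them (MAP1LC3A, OPTN, ATG4A and ATG7) were listed at 0 in all 18 footprint libraries. In the 6 vehicle RNA libraries of 6 h and 72 h, the Wilms tumor markers IGF2 (1245 to 1816 CPM, counts scaled to a common library total) and WT1 (7.48 to 13.2 CPM) were present. Another 6 markers of nephron progenitors (SIX2, CITED1, PAX2, PAX8, EYA1 and SALL1) stayed below 0.7 CPM, and the 4 blood and endothelial markers (PTPRC, CD14, PECAM1 and CDH5) below 0.6 CPM. All 4 epithelial and all 4 stromal markers were present, from CDH1 (0.721 to 3.71 CPM) to KRT8 (567 to 4282 CPM), and in bulk libraries fewer cells of a type and less RNA per cell cannot be told apart. In the 72 h RNA table, DMSO replicate 3 stood apart: 12.5% of all genes tested there were over 1.5 times above or below the range of the other 5 libraries, as were 5 of 40 members (CALCOCO2, ULK2, WIPI1, ATG2A and TFEB). Gene overlap limits single values too: 15 members overlap another gene on the same strand and 27 on the opposite strand, and the use of strand in counting is not given in the sources used here.

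The promoters were read for 36 members that matched the RefSeq table of GRCh38.p14, in 46 windows from 250 bases before to 50 after a start. The motifs searched, on both strands, were CACGTG (the core of the element that TFEB and TFE3 bind), TCACGTGA (a longer form of it, which overlaps it), GTAAACA (bound by FOXO factors), TGATGNAA (the start of an element bound by ATF4), TGACTCA (bound by AP-1), TGACGTCA (the cAMP response element, bound by CREB and ATF factors, added after the sequences had been read) and GGGCGG (the GC box). Every match in these windows is shown, apart from those of the common GC box, because GABARAPL1 has the largest RNA difference among the members at 6 h, CALCOCO2 is among the lowest at 72 h, and TFE3 is itself a factor of this pathway. Capitals mark the motif.
GABARAPL1 (chr12:10212836-10212865, + strand): ggctcgcggggTGACGTCAcagcccgacgc
CALCOCO2 (chr17:48830798-48830827, + strand): aaaaaagaaaaGTAAACAgcttcttccagg
TFE3 (chrX:49043381-49043410, - strand): tgggcgggggaTGACTCAcagcccatccca
ATG14 (chr14:55411834-55411863, - strand): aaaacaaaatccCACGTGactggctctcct
ATG3 (chr3:112561963-112561992, - strand): cctttctcacgtCACGTGccgggagagtct
ATG3 (chr3:112561940-112561969, - strand): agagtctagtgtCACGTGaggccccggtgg
BNIP3 (chr10:131982040-131982069, - strand): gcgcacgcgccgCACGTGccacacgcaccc
In GABARAPL1 the motif begins 30 bases before the RefSeq start, and TGACGTCA was present in 1.85% of all 35116 windows of this length. In GENCODE v29 GABARAPL1 begins at 10212458, before the printed stretch, and 199 of the 250 bases before the RefSeq start lie in its exons. For TFE3 that was 129 bases, for BNIP3 90, for ATG3 84, for CALCOCO2 47 and for ATG14 28. Part of the sequence read as promoter is therefore annotated as exon. CACGTG was in the windows of 3 members and in 7.26% of all windows, TCACGTGA in ATG3 only and in 0.98%, GTAAACA in CALCOCO2 only and in 3.42%, and TGACTCA in TFE3 only and in 4.95%. TGATGNAA was in none of the members' windows and in 3.62% of all, and GGGCGG was in 33 of the 46 windows and in 45% of all. The median share of G and C before the start was 62.6% in the members' windows and 58% in all windows. Some members have more than 1 window, and the difference in GGGCGG was not tested. A match is a stretch of letters and says nothing of binding in these cells.

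Across the set, few RNA differences passed a test. MAP1LC3A was too low to test (at most 0.23 CPM in any RNA library), and none of the other 40 members passed an adjusted p of 0.05 in edgeR's quasi-likelihood test at 6 h, 72 h or 2 weeks. The table-wide background was as low: 0% of 22669 genes tested at 6 h, 0.00472% (1 gene) of 21195 at 72 h and 0% of 21137 at 2 weeks. At an unadjusted p under 0.05, members numbered 5 at 6 h, 6 at 72 h and 4 at 2 weeks, against 8.21%, 13.1% and 8.93% of all genes. The members' shares of 5, 6 and 4 in 40 are near that background. DESeq2, run as the alternative, called 2 members at 6 h, none at 72 h and 1 at 2 weeks, where it called 0.948%, 3.15% and 1.19% of all genes.

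The median log2 fold change of the 40 members was 0.01 at 6 h, -0.02 at 72 h and 0.01 at 2 weeks, where all genes tested had 0.02, 0.02 and -0.02. Members above 0 numbered 21, 18 and 20 of 40. Both treatments' libraries were fully separated, with no overlap, for 10 members at 6 h, 9 at 72 h and 5 at 2 weeks, against 15.8%, 20.9% and 15.7% of all genes. The summed RNA of all members was 1941 ± 48.8 CPM in DMSO and 2045 ± 159 in actD at 6 h (SD, n = 3 each), and 1864 ± 201 and 1799 ± 288 at 72 h, with overlapping libraries at both times. The plot of log2 fold changes by role shows each member, and differences between roles were not tested.

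**Figure D1:**
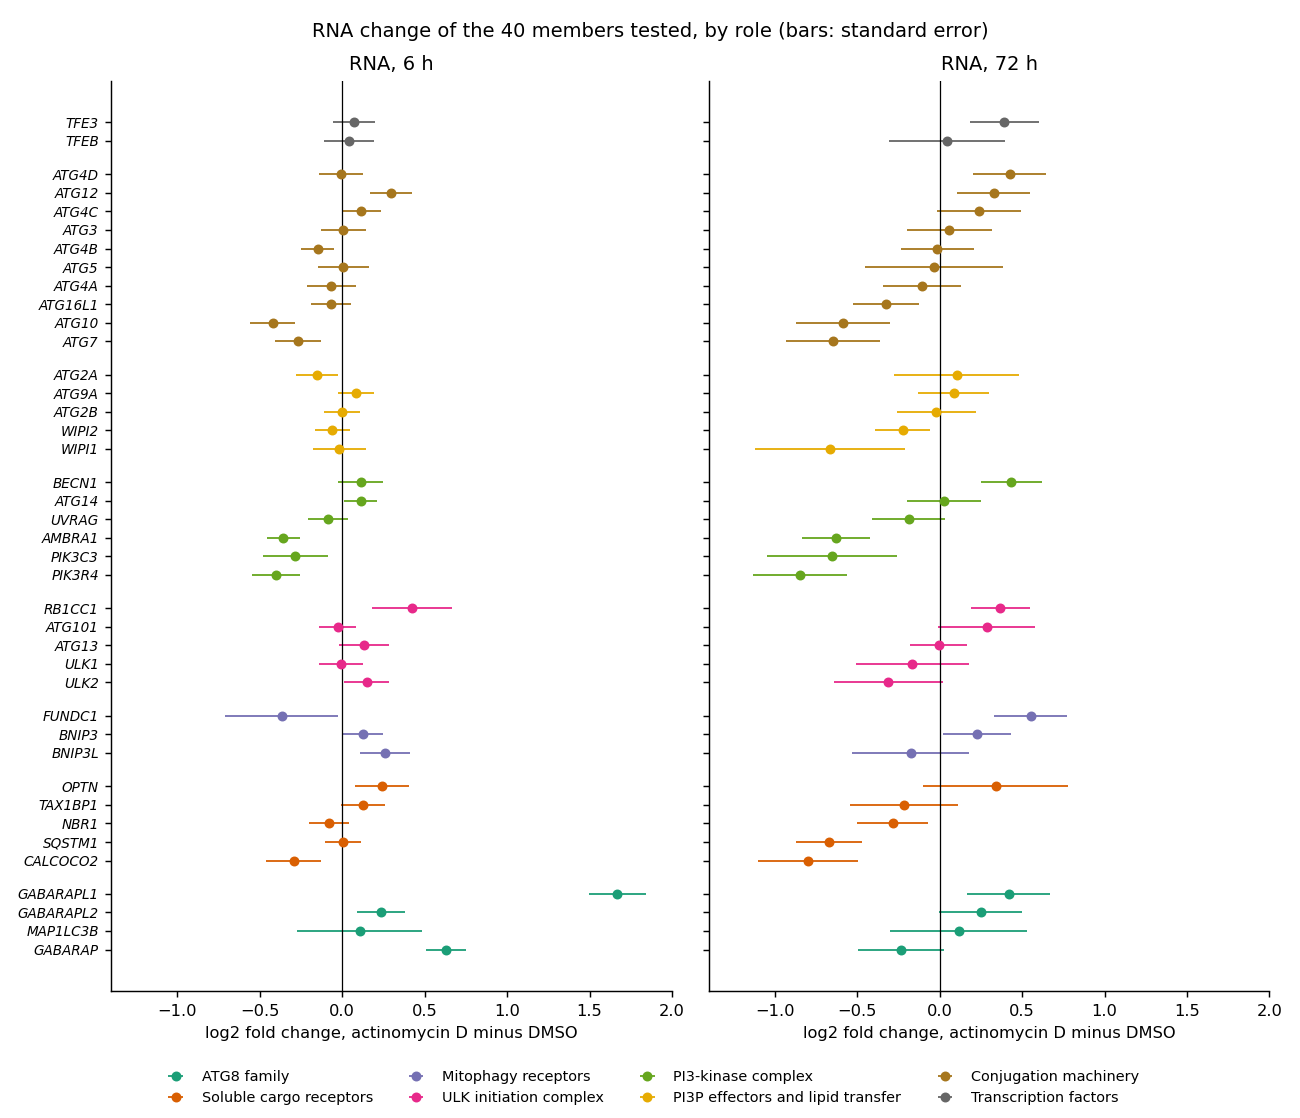
RNA log2 fold change (actD minus DMSO, horizontal axis) of the 40 members tested, at 6 h (left) and 72 h (right), grouped and coloured by role, with bars for the standard error. GABARAPL1 stands alone at 1.67 at 6 h, while at 72 h the values run from -0.85 (PIK3R4) to 0.55 (FUNDC1).

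Of the ATG8 family, GABARAPL1 and GABARAP had higher RNA in the actD libraries at 6 h, both called by DESeq2 and neither by edgeR, and the other members differed less. The GABARAPL1 protein acts late in autophagosome formation and in recruiting receptors. GABARAPL1 (ENSG00000139112, chromosome 12, 10212458 to 10223130, + strand) had 15.98, 17.99 and 23.14 CPM in the DMSO libraries and 60.89, 51.65 and 68.80 CPM in the actD libraries. Every actD library was above every DMSO library by a wide gap, with means of 60.4 ± 8.59 and 19.0 ± 3.69 CPM (SD, n = 3 each). The log2 fold change was 1.67 (SE 0.17), the second lowest p of 22669 genes, yet its adjusted p of 0.060 missed the threshold in edgeR. DESeq2 called it (adjusted p 3.6e-14). Over 14 alternatives its log2 fold change ran from 1.56 to 1.83, and DESeq2 was the only one of them to call it. Its processed pseudogene GABARAPL3 had at most 0.031 CPM in these libraries, and the antisense gene AC115676.1 overlaps it.

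GABARAP, which gives its name to that branch of the family, was higher too, with a smaller difference. It had 37.79, 37.89 and 44.96 CPM in DMSO and 57.76, 60.87 and 67.70 CPM in actD at 6 h. All 3 actD libraries were above all 3 DMSO libraries, with a log2 fold change of 0.63 (SE 0.12), an adjusted p of 0.24 in edgeR and of 0.010 in DESeq2, which called it. The protein-coding gene AC120057.2 overlaps GABARAP on the same strand, so its count is uncertain. GABARAPL2 had 32.72 to 33.73 CPM in DMSO and 33.97, 35.83 and 47.32 CPM in actD, separated by a narrow gap (log2 fold change 0.23, SE 0.14). MAP1LC3B, the gene of the LC3 protein most used as a marker of autophagosomes, had 38.59, 39.41 and 51.66 CPM in DMSO. Its actD libraries were spread from 20.54 over 47.98 to 71.05 CPM, on both sides of the DMSO libraries. Leaving out actD replicate 3 turned its log2 fold change from 0.11 to -0.34.

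The family sum at 6 h was 126.2, 128.1 and 153.1 CPM in DMSO and 173.3, 196.4 and 254.9 CPM in actD, with no overlap. Without GABARAPL1 the sum of the other 4 genes was 110.2, 110.2 and 129.9 CPM against 112.4, 144.8 and 186.1, which overlap. Per kilobase of exon, the order of levels in the 6 h DMSO libraries was GABARAP (17.7 CPM per kb), GABARAPL2 (10.9), MAP1LC3B (8.13), GABARAPL1 (4.66) and MAP1LC3A (0.083), and the 3 libraries of neighbours in that order did not overlap. In the 6 h actD libraries GABARAPL1 stood second, at 14.8 CPM per kb after 27.4 for GABARAP. Its libraries there overlapped those of GABARAPL2 (12.9 CPM per kb).

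**Figure D2:**
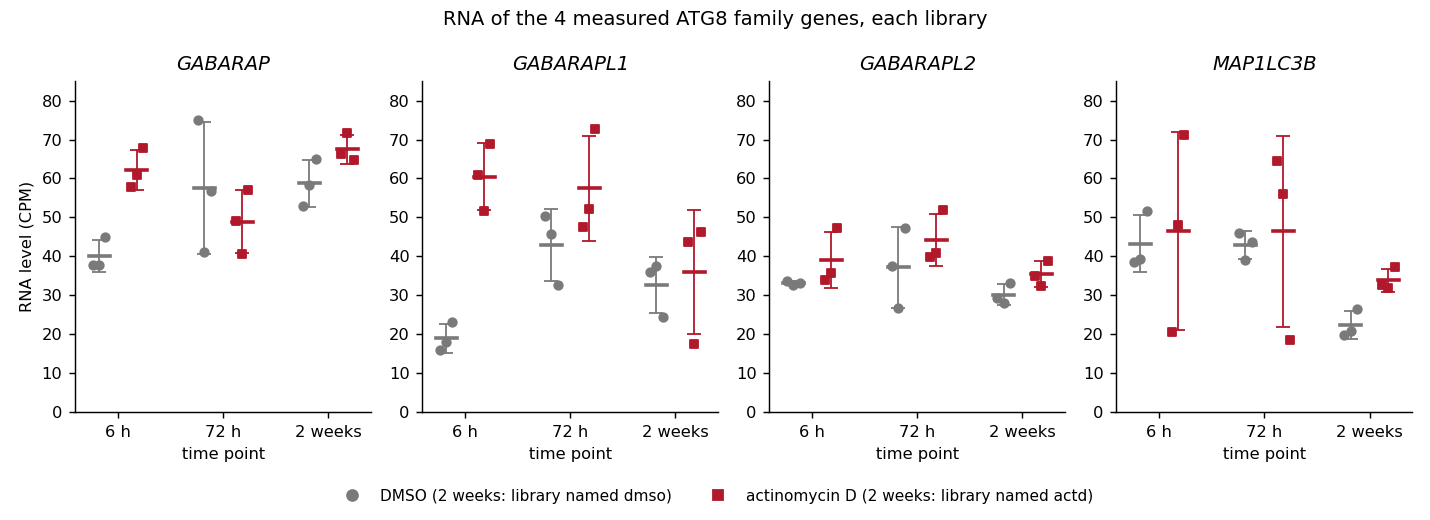
RNA level in CPM (vertical axis) of GABARAP, GABARAPL1, GABARAPL2 and MAP1LC3B in each library at 6 h, 72 h and 2 weeks, with horizontal lines for group means and bars for the SD of 3 libraries. GABARAPL1 is separated at 6 h (15.98 to 23.14 against 51.65 to 68.80 CPM) and overlaps at both later times. Levels at different time points come from tables scaled separately.

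At 72 h the ATG8 family no longer separated. GABARAPL1 had 50.41, 45.82 and 32.69 CPM in DMSO and 47.44, 52.07 and 72.81 CPM in actD (log2 fold change 0.42, SE 0.25, adjusted p 0.51 in edgeR). Without replicate 3 of both arms that value was 0.04. GABARAP had 75.03, 41.11 and 56.73 CPM in DMSO and 49.07, 40.69 and 56.92 CPM in actD (log2 fold change -0.24, SE 0.26). Its arms overlapped, with a DMSO library the highest. GABARAPL2 had 37.62, 26.71 and 47.42 CPM in DMSO against 39.93, 40.95 and 51.90 in actD, and MAP1LC3B had 46.01, 39.10 and 43.64 against 64.59, 56.08 and 18.67. For MAP1LC3B, actD replicate 3 was the lowest library of the table, and its log2 fold change of 0.11 ran from -0.22 to 0.50 over 14 alternatives, 3 of them below 0.

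The difference between the 72 h and 6 h responses was tested directly, as an interaction. For GABARAPL1 it was -1.27 on the log2 scale (SE 0.32, adjusted p 0.38), for GABARAP -0.88 (SE 0.31, adjusted p 0.52) and for the cargo receptor SQSTM1 -0.70 (SE 0.22, adjusted p 0.49). These 3 were the members at an unadjusted p under 0.05, a rule that 8.02% of all 24251 genes met. No member of 40 was called by edgeR, where 0.0165% of genes were, and none by DESeq2, where 0.743% were.

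At 2 weeks the 4 measured family members had log2 differences of 0.14 to 0.60, named actd minus named dmso. MAP1LC3B had 19.98, 20.80 and 26.48 CPM in the libraries named dmso and 32.59, 31.89 and 37.21 CPM in those named actd. The libraries did not overlap, with a log2 difference of 0.60 (SE 0.14), an adjusted p of 0.39 in edgeR and of 0.037 in DESeq2, the only call of a member at that time. GABARAPL1 had 36.04, 37.52 and 24.52 CPM against 43.79, 17.63 and 46.38, which overlap. GABARAP had 52.91, 58.39 and 65.04 CPM against 66.24, 71.73 and 64.64, and GABARAPL2 had 29.32, 28.12 and 33.28 against 35.01, 32.31 and 38.96, both with a narrow overlap. The sign for GABARAPL1 differed in 4 of 14 alternatives. Taking treatment from the titles turns all of these signs by construction.

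Of the 5 soluble cargo receptors, 4 had a log2 fold change below 0 at 72 h, the lowest being CALCOCO2 and SQSTM1, and OPTN was above 0 (median -0.29). SQSTM1, the gene of p62, a receptor for ubiquitin-tagged protein aggregates, had 112.12, 116.26 and 155.59 CPM in DMSO and 79.20, 83.46 and 78.48 CPM in actD at 72 h. The arms were fully separated (log2 fold change -0.67, SE 0.20, adjusted p 0.28). In 1 fit over all 18 RNA libraries SQSTM1 passed (-0.65, adjusted p 0.018), as did AMBRA1, a pair among 4.89% of all genes that this fit called at 72 h. SQSTM1 did not share this at 6 h, with 255.67, 252.64 and 258.73 CPM in DMSO and 238.05, 255.28 and 275.45 in actD, or at 2 weeks, where the libraries named dmso had 148.21 to 172.74 CPM and those named actd 139.20 to 168.66.

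CALCOCO2, the gene of NDP52, a receptor for bacteria and mitochondria, had 50.57, 45.18 and 95.73 CPM in DMSO and 38.81, 37.42 and 33.91 CPM in actD at 72 h. The arms were separated, but the high DMSO value is replicate 3, and without that library the log2 fold change was -0.39 in place of -0.80. TAX1BP1, another receptor for ubiquitin-tagged aggregates, had 342.41, 318.81 and 363.20 CPM against 201.89, 223.98 and 456.14. Here actD replicate 3 was the highest of all 6 libraries, and without it the log2 fold change was -0.69 in place of -0.22. NBR1, which works with p62, had 112.55, 109.56 and 146.85 CPM against 90.33, 91.08 and 121.32 (-0.29, SE 0.22). OPTN, a receptor for damaged mitochondria, had 12.04, 11.72 and 33.04 CPM against 18.87, 21.49 and 31.64. Replicate 3 of both arms was its highest library, and its log2 fold change of 0.34 ran from 0.09 to 1.01 over 14 alternatives, the highest without DMSO replicate 3, and none of them called it.

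None of the 5 receptors passed edgeR's threshold at any time point in the fit of each table alone. At 6 h their log2 fold changes lay between -0.29 (CALCOCO2) and 0.24 (OPTN), with overlapping libraries for each. At 2 weeks OPTN was separated, with 9.20, 9.91 and 9.62 CPM in the libraries named dmso and 11.72, 12.31 and 11.51 in those named actd (log2 difference 0.31, SE 0.12, adjusted p 0.52). The other 4 overlapped at 2 weeks.

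The mitophagy receptors are proteins of the outer mitochondrial membrane that bind ATG8 proteins directly. At 72 h FUNDC1 had 30.47, 21.58 and 24.93 CPM in DMSO and 35.51, 32.85 and 44.43 CPM in actD, separated, with a log2 fold change of 0.55 (SE 0.22, adjusted p 0.35). At 6 h it was not: DMSO replicate 1 had 28.08 CPM and the other 5 libraries 10.87 to 17.73. BNIP3L had 77.54, 39.32 and 115.19 CPM in DMSO at 72 h, the widest spread in this role, against 68.73, 64.83 and 71.78 in actD. Its sign turned without DMSO replicate 3 (0.22 in place of -0.18). BNIP3 had 0.23 at 72 h, between the other two.

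In the ULK initiation complex, RB1CC1 (FIP200, the scaffold of the complex) had 117.86, 93.79 and 108.44 CPM in DMSO and 138.85, 132.31 and 141.85 CPM in actD at 72 h. The arms did not overlap (log2 fold change 0.37, SE 0.18, adjusted p 0.44). At 6 h RB1CC1 had 29.20, 52.38 and 49.94 CPM against 57.66, 46.44 and 72.18, which overlap. ULK2, a kinase of the complex, was the lowest of the role at 72 h, with 14.69, 11.37 and 24.30 CPM against 15.52, 15.19 and 9.90, and its sign turned without DMSO replicate 3 (0.05 in place of -0.31). The role's summed RNA was 184.6 ± 11.9 CPM in DMSO and 215.5 ± 8.69 in actD at 72 h (SD, n = 3 each), without overlap, and overlapped at 6 h and 2 weeks. RB1CC1 carried that separation: without it the other 4 genes summed to 77.9 ± 2.72 and 77.8 ± 6.00 CPM (SD, n = 3 each), which overlap.

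The PI3-kinase complex held members on both sides of 0, with AMBRA1 and PIK3R4 lower and BECN1 higher in actD at 72 h. AMBRA1 links the ULK and PI3-kinase complexes as a regulator of BECN1. Its RNA was 48.68, 46.09 and 50.57 CPM in DMSO and 36.27, 39.48 and 37.77 CPM in the actD libraries at 6 h (-0.36 on the log2 scale, SE 0.10, adjusted p 0.46). At 72 h it was 30.41, 31.76 and 25.43 CPM against 16.17, 18.81 and 21.59 (-0.63, SE 0.21, adjusted p 0.30). At 2 weeks the libraries named dmso had 52.84, 53.38 and 48.32 CPM and those named actd 46.32, 37.97 and 35.91 (-0.36, SE 0.13, adjusted p 0.51). So at each time all libraries of 1 arm lay below all of the other. The 1 fit over all RNA libraries called AMBRA1 at 72 h (-0.60, adjusted p 0.019), and no fit of a single table did.

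**Figure D3:**
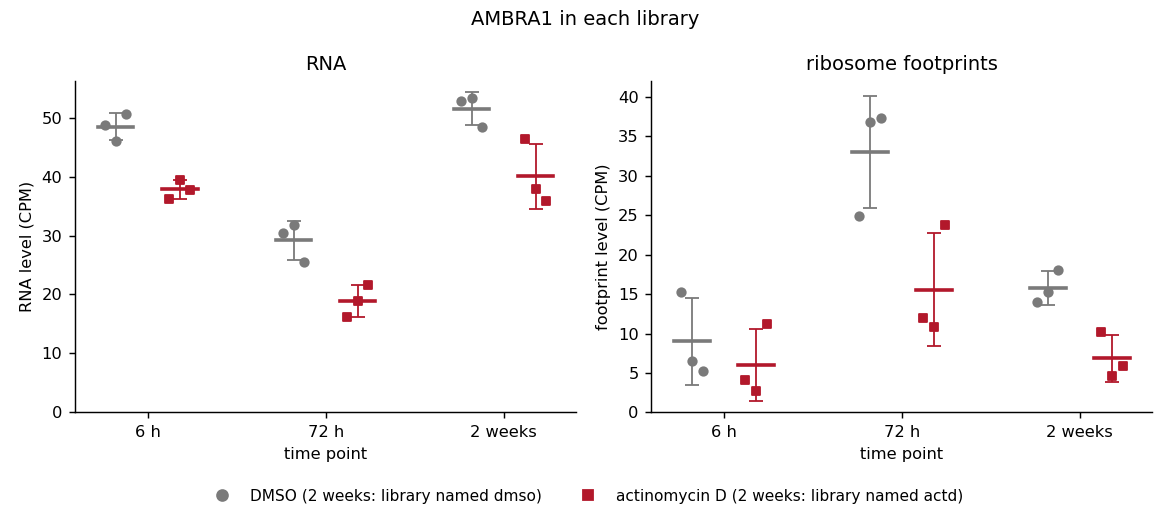
AMBRA1 in each library as RNA (left) and as ribosome footprints (right), in CPM, with group means and bars for the SD of 3 libraries. The arms do not overlap in RNA at any of the 3 times or in footprints at 72 h and 2 weeks. They overlap in footprints at 6 h. At 2 weeks, and in part at 72 h, the gene passed the footprint filter through the DMSO arm, so its footprint separation at both times is only a description.

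PIK3R4 (VPS15, the regulatory subunit of the lipid kinase) had 32.28, 30.97 and 27.25 CPM in DMSO and 24.59, 25.07 and 18.87 CPM in actD at 6 h. At 72 h it had 31.69, 32.33 and 18.25 CPM against 13.69, 13.39 and 18.64 (log2 fold change -0.85, SE 0.28, adjusted p 0.31), the lowest value of any member. The overlap at 72 h came from replicate 3 of both arms: without them the value was -1.25 (SE 0.13) and it was called (adjusted p 0.046), in a fit with 2 libraries an arm that called 419 genes. BECN1, the complex's scaffold, had 48.78, 53.65 and 55.62 CPM in DMSO and 64.31, 67.07 and 82.17 CPM in actD at 72 h. Its arms were separated (0.43, SE 0.18, adjusted p 0.38), as they were not at 6 h (55.35 to 57.58 against 50.71 to 70.54 CPM). The kinase subunit PIK3C3, named after its value was seen, was among the members at an unadjusted p under 0.05 at 2 weeks (log2 difference -0.60, SE 0.26). The 6 genes had a median log2 fold change of -0.18 at 6 h, -0.41 at 72 h and -0.21 at 2 weeks.

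Among PI3P effectors and lipid transfer genes the median was -0.02 at both 6 h and 72 h. WIPI1, which binds PI3P, was the lowest at 72 h by 1 library: it had 4.73, 4.31 and 13.70 CPM in DMSO and 4.65, 4.77 and 4.93 in actD. Without DMSO replicate 3 its log2 fold change was 0.08 in place of -0.67. ATG2A, a lipid transfer protein, was the highest with 14.87, 16.87 and 6.29 CPM against 14.87, 15.69 and 10.25 (0.10, SE 0.38). ATG9A, the membrane protein that seeds the structure, had 21.12, 19.97 and 16.45 CPM against 21.29, 23.01 and 16.77 (0.09, SE 0.22).

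The conjugation machinery, the enzymes that process ATG8 proteins and attach them to lipid, had a median log2 fold change of -0.04 at 6 h, -0.02 at 72 h and 0.04 at 2 weeks over its 10 genes. At 72 h the extremes were ATG7, the E1-like enzyme of both conjugation systems, and ATG4D, a protease that trims ATG8 proteins. ATG7 had 8.86, 8.74 and 11.79 CPM in DMSO and 5.02, 5.31 and 8.45 CPM in actD, a narrow separation (-0.65, SE 0.28, adjusted p 0.39). At 6 h it was separated too, with 16.31, 13.52 and 12.51 CPM against 12.02, 11.42 and 11.65. ATG4D had 9.72, 12.49 and 9.31 CPM against 14.91, 15.30 and 12.14 at 72 h, and its arms overlapped (0.43, SE 0.22). ATG10, the E2-like enzyme for ATG12 and named after its value was seen, was at an unadjusted p under 0.05 at 6 h (-0.42, SE 0.14, adjusted p 0.53).

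Of the 2 transcription factors, TFE3 was the more abundant, with 27.9 CPM per kb of exon in the 6 h DMSO libraries against 0.878 for TFEB. TFE3 had 51.27, 55.13 and 57.83 CPM in DMSO and 64.20, 61.45 and 89.95 CPM in actD at 72 h, separated (log2 fold change 0.39, SE 0.21, adjusted p 0.47). The 6 h libraries overlapped, at 116.55 to 123.80 CPM in DMSO and 109.15 to 142.16 in actD. TFEB had 1.84, 2.61 and 1.13 CPM against 1.90, 2.00 and 1.84 at 72 h.

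Members that span more of the genome had lower RNA log2 fold changes. The gene span of the 40 ran from 2757 (GABARAP) to 328029 bases (UVRAG), with a median of 40034. At 72 h the 20 shorter genes had a median log2 fold change of 0.17 and the 20 longer ones of -0.20. Spearman's rho between span and log2 fold change was -0.54 at 72 h, -0.30 at 6 h and -0.31 at 2 weeks. Over all protein-coding genes tested (14370 at 72 h) it was -0.29, -0.11 and -0.12. These are descriptions across genes, which share libraries and are not replicates.

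**Figure D4:**
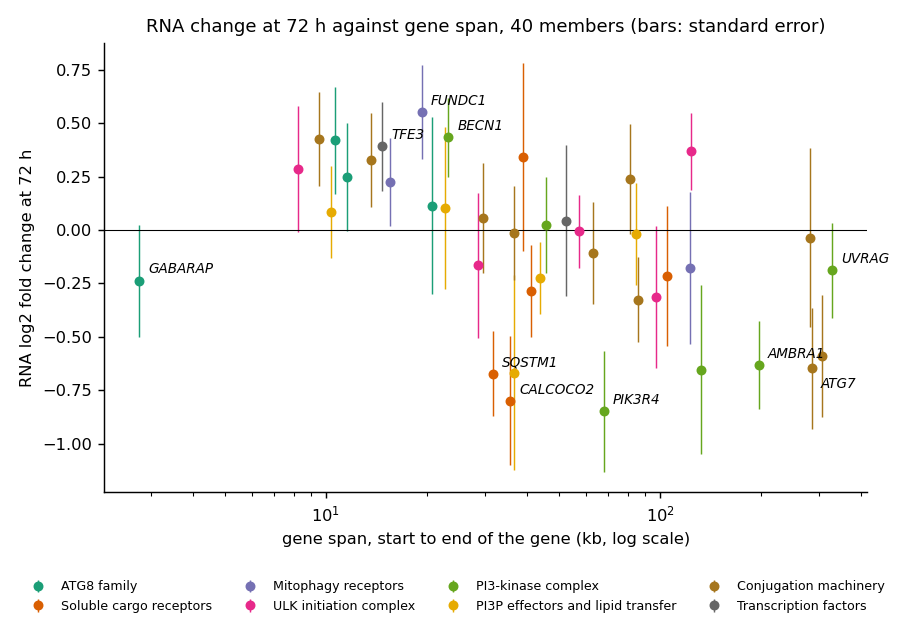
RNA log2 fold change at 72 h (vertical axis) against gene span in kb (log scale) for the 40 members tested, coloured by role, with bars for the standard error. Points at the short end lie mostly above 0 and AMBRA1, ATG7 and ATG10 at the long end below, while RB1CC1 and the short GABARAP go the other way.

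Footprints could be tested for few members. The filter on low counts passed 1 member at 6 h (NBR1), 8 at 72 h and 4 at 2 weeks. Some members passed through the arm where they were higher, which favours a difference between the arms. At 72 h that was so for GABARAPL2, CALCOCO2, ATG9A and BECN1, which cleared the minimum in all 3 actD libraries but in 1, 1, 0 and 0 DMSO libraries. It was so in part for AMBRA1, with 2 DMSO libraries and 1 actD library over the minimum, and for SQSTM1, with 1 and 2. At 2 weeks it was so for AMBRA1, with 3 DMSO libraries and 1 actD library over the minimum. The values of these members are a description, and nothing is read from their p-values or their separation. No member was called by edgeR at 6 h (background 0% of 1212 genes), at 72 h (3.79% of 2426) or at 2 weeks (0% of 1598). An unadjusted p under 0.05 was met by 0, 3 and 1 members, against 3.14%, 27.3% and 8.57% of all genes. Those were GABARAPL2, BECN1 and ATG9A at 72 h and AMBRA1 at 2 weeks, all named above, so nothing is read from these counts. DESeq2 called none at any time, with 0.00814%, 8.48% and 0% of all genes called. At 72 h the 3 DMSO libraries were shallow: a count of 3, taken as the lowest level that can be told from 0 and covering counting error only, equals 3.57 to 37.3 CPM over the 6 libraries.

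At 72 h the 8 members with enough footprints were AMBRA1, GABARAPL2, CALCOCO2, ATG2A, SQSTM1, ATG9A, NBR1 and BECN1. GABARAPL2 had 10, 7 and 2 counts in DMSO and 39, 21 and 98 in actD, which is 22.62, 23.47 and 24.87 CPM against 58.23, 57.10 and 116.58. The log2 fold change was 1.73 (SE 0.43). ATG9A had 4, 4 and 1 counts against 33, 18 and 21, or 9.05, 13.41 and 12.44 CPM against 49.27, 48.94 and 24.98 (1.83, SE 0.47). The protein-coding gene AC068946.2 overlaps ATG9A on the same strand, so the ATG9A count is uncertain. BECN1 had 5, 4 and 1 counts against 19, 11 and 24, or 11.31, 13.41 and 12.44 CPM against 28.37, 29.91 and 28.55 (1.22, SE 0.38).

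AMBRA1 footprints were lower in actD at 72 h, with 24.88, 36.88 and 37.31 CPM in DMSO and 11.94, 10.88 and 23.79 in actD (-0.94, SE 0.45, adjusted p 0.22). AMBRA1, GABARAPL2, ATG9A and BECN1 were the 4 members whose arms did not overlap, where 35.7% of all genes were separated. The last 3 of these passed through the actD arm, as did CALCOCO2, whose arms overlapped. AMBRA1 passed in part through the DMSO arm, so nothing is read from its separation or p-value. The SQSTM1 value of 1.44 (SE 0.94) came from actD replicate 1, with 102 counts where the other actD libraries had 9 and 18 and DMSO had 9, 12 and 0. Without it the value was -0.07. NBR1 had 97.27, 83.82 and 211.44 CPM against 67.19, 84.29 and 65.43 (-0.77, SE 0.43), the DMSO value of 211.44 resting on 17 counts. CALCOCO2 (0.39, SE 0.39) and ATG2A (-0.02, SE 0.41) overlapped, with 13, 4 and 2 counts against 20, 12 and 23 for CALCOCO2 and 18, 10 and 4 against 34, 17 and 19 for ATG2A.

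**Figure D5:**
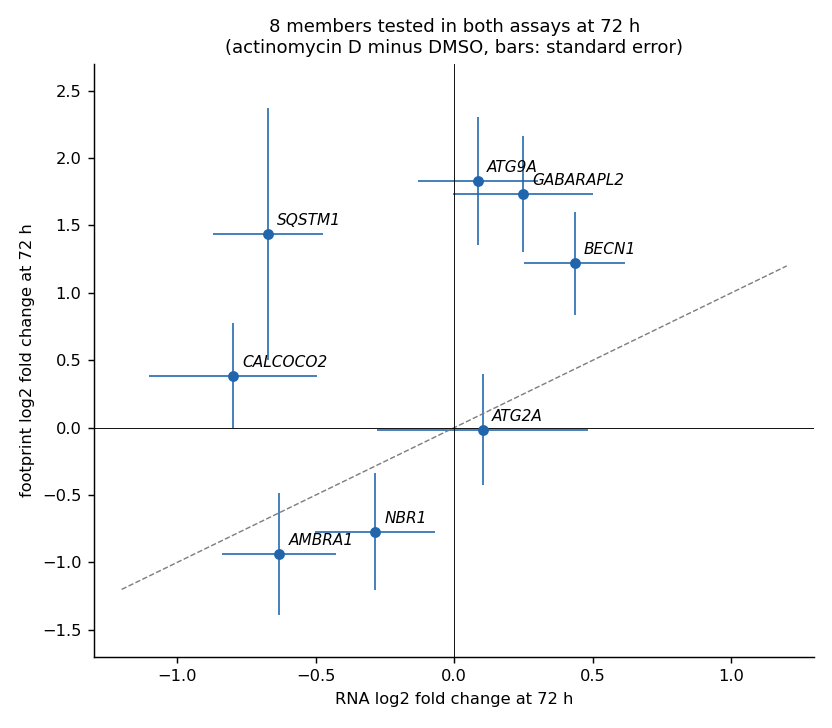
Footprint log2 fold change (vertical axis) against RNA log2 fold change (horizontal axis) at 72 h for the 8 members tested in both, with bars for the standard error and a dashed line where the 2 would be equal. ATG9A, GABARAPL2 and BECN1 lie above the line with footprint values of 1.22 to 1.83, as do SQSTM1 (1.44) and CALCOCO2 (0.39). SQSTM1 rests on 1 actD library, and the others above the line passed the footprint filter through the actD arm. AMBRA1 and NBR1 lie below 0 in both.

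Translational efficiency, the footprint change less the RNA change on the log2 scale, was not called by edgeR for any member. At 72 h the highest of 8 was SQSTM1 with 1.99 (SE 0.97, adjusted p 0.37), whose footprints rest on 1 actD library. ATG9A had 1.62 (SE 0.51), GABARAPL2 1.39 (SE 0.53), CALCOCO2 1.08 (SE 0.59) and BECN1 0.67 (SE 0.38). Below 0 were NBR1 with -0.57 (SE 0.48), AMBRA1 with -0.47 (SE 0.45) and ATG2A with -0.30 (SE 0.59). At 2 weeks the RNA side was taken by library name. AMBRA1 had -0.87 there (SE 0.36, adjusted p 0.88), and with treatment from the titles -1.56 (adjusted p 0.050), in a fit that called 27 genes in place of 0. edgeR called 0% of 951 genes at 6 h, 0.433% of 2311 at 72 h and 0% of 1441 at 2 weeks. An unadjusted p under 0.05 was met by 0 of 1, 2 of 8 and 1 of 4 members, against 5.26%, 14.9% and 5.14% of all genes. Those members were ATG9A and GABARAPL2 at 72 h and AMBRA1 at 2 weeks. Each passed the footprint filter through the arm where it was higher, so nothing is read from their p-values or these counts. DESeq2, which tested more members, called 1 at 6 h and none at 72 h or 2 weeks, with 0.912%, 4.02% and 0.00664% of all genes. That member was TAX1BP1 (adjusted p 0.018), with footprint counts of 14, 14 and 0 in DMSO and 0 in all 3 actD libraries, so no fold is given. TAX1BP1 was also listed at 0 in all 6 footprint libraries at 72 h, where its RNA was 201.89 to 456.14 CPM, and in 14 of 18 footprint libraries in all.

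The ATG8 genes with the highest RNA values at 6 h could not be followed in footprints at that time. GABARAPL1 had 7, 5 and 0 footprint counts in DMSO and 0, 0 and 2 in actD at 6 h. GABARAP had 8, 0 and 0 against 0, 0 and 5, and MAP1LC3B had 0, 0 and 2 against 4, 0 and 0. A difference in their footprints was therefore not detectable at this depth. At 72 h GABARAPL1 had 0, 1 and 1 counts against 3, 2 and 8, and GABARAP ranged from 0 to 37 in DMSO and from 0 to 43 in actD.

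At 2 weeks the footprint labels do not conflict. AMBRA1 had 9, 17 and 12 counts in DMSO and 9, 4 and 4 in actD, or 13.94, 15.30 and 18.11 CPM against 10.25, 4.56 and 5.83. The log2 fold change was -1.16 (SE 0.40). Among the 4 members tested, only its arms did not overlap, where 14.9% of all genes were separated. AMBRA1 passed the filter through the DMSO arm, so nothing is read from that separation. The other 3, GABARAP (-0.19, SE 0.43), NBR1 (-0.04, SE 0.31) and CALCOCO2 (0.20, SE 0.31), overlapped. At 6 h AMBRA1 had too few counts to test, 15, 5 and 2 in DMSO and 2, 1 and 5 in actD. For the difference between 72 h and 6 h in footprints, 11 members were tested and none was called by edgeR (0% of 3012 genes) or DESeq2 (0.0129%). GABARAPL2 was the 1 member at an unadjusted p under 0.05 (2.03, SE 0.91), against 6.54% of all genes. It had passed the 72 h filter through the actD arm, so nothing is read from that p-value.

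Other genes of the pathway, on lists fixed with earlier results known, were examined in the same fits. Of 32 further autophagy genes, 31 were tested in RNA at each time and none was called in either direction by edgeR in any comparison, with a median of 0.03 at 2 weeks and within 0.01 of 0 at 6 h and 72 h. At an unadjusted p under 0.05, 3 were higher and 1 lower at 6 h, 2 lower at 72 h and 1 lower at 2 weeks, where 8.21%, 13.1% and 8.93% of all genes met that rule. Of these, PHB2, a mitophagy receptor of the inner mitochondrial membrane, was called lower at 72 h by DESeq2 (-0.71, adjusted p 0.036) and by the 1 fit over all RNA libraries (-0.67, adjusted p 0.026), which called 3.15% and 4.89% of all genes, with 169.87, 154.36 and 171.24 CPM in DMSO and 116.72, 94.74 and 94.96 in actD. Of 40 lysosome genes, 39 matched a symbol, and none was called by edgeR. RRAGD, a GTPase that signals nutrient state at the lysosome, was called lower at 72 h in the 1 fit over all RNA libraries (-0.83, adjusted p 0.037), among the same 4.89%. TPP1, a lysosomal protease, was called at 2 weeks by DESeq2 (0.68, adjusted p 0.028), where 1.19% of all genes were, with 12.88 to 18.85 CPM in the libraries named dmso and 25.70 to 27.11 in those named actd. The lysosome list's median there was 0.28, with -0.02 for all genes, and at an unadjusted p under 0.05 edgeR had 12 of 39 higher and 0 lower in the libraries named actd, where 8.93% of all genes met that rule in either direction. At 6 h 1 was lower (8.21% of all genes in either direction), and at 72 h 1 was higher and 5 lower (13.1%). None of 5 other MiT and FOXO factors was called in RNA by edgeR, DESeq2 or that single fit, and 1 was lower at an unadjusted p under 0.05, at 6 h.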

How the data were processed

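Total RNA and ribosome footprints of WiT49 cells were analysed from 6 gene tables, 1 per assay and time point. The authors deposited expected counts (estimated read counts per gene, whole numbers). HISAT2, StringTie and the build hg38 are named in the submitters' processing notes; versions, annotation, filters and the use of strand are not given in the sources used here. Low counts in the RNA tables of 6 h and 2 weeks pile up weakly at steps of 2.67. Values on those steps were 1.24 and 1.23 times as frequent, relative to their neighbours, as values off them. The labels' protocols name 2 extraction kits and 2 RNA library kits without saying which library used which, so that difference cannot be told apart from the groups.

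Gene versions were stripped and matched to GENCODE v29 (99.4% of footprint table rows). Each table was filtered with filterByExpr, scaled by TMM and tested with edgeR 4.0.16's quasi-likelihood test in R 4.3.3, with Benjamini-Hochberg adjustment over all genes tested and a call at an adjusted p under 0.05. Adjusted p-values are edgeR's unless DESeq2 1.42.0 is named. Standard errors are the log2 fold change divided by the root of the F statistic. Translational efficiency and the 72 h against 6 h difference were interaction terms. CPM are counts divided by the TMM-scaled library total and brought to 1 common total within a table. The order of filter and scaling was chosen with both results seen: scaling first changes no member's call. The code of the fits was run on simulated counts with a fixed spread between libraries, not one taken from these data. That run says nothing of what the fits can detect here.

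The members and lists were chosen with earlier results of these data known. Per-library values are given for every ATG8 gene, every member called by edgeR, DESeq2 or the 1 fit over all time points, the highest and lowest member of each role in RNA at 72 h, and every member that passed the footprint filter at 72 h. No 2 replicates were identical (36 pairs). Alternatives were DESeq2, a looser filter, library totals, protein-coding scaling, leaving out each library, a replicate block, 1 fit over all time points, TMM over both assays, counts divided by their step and treatment from the titles.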

Additional observations from a re-analysis of the deposited data

How the results depend on the processing

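No member was called in edgeR's main fit of any of the 11 comparisons, the interactions included, and this held under most alternatives. The exceptions were DESeq2, with 2 members in RNA at 6 h, 1 in RNA at 2 weeks and 1 in translational efficiency at 6 h; the 1 fit over all time points, with 2 in RNA at 72 h; treatment taken from the titles, with 1 (AMBRA1, adjusted p 0.050) in translational efficiency at 2 weeks; and replicate 3 of both arms left out of RNA at 72 h, chosen after seeing the data, with 1 (PIK3R4). Leaving out 1 library at a time gave 0 to 2 members called in footprints at 72 h and 0 elsewhere. These were ATG9A and GABARAPL2 without actD replicate 3, both of which passed the filter through the actD arm. AMBRA1, called with treatment from the titles, passed the footprint filter at 2 weeks through the DMSO arm.

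With the replicate block, 0 members were called in every comparison, and the genes called at 72 h went from 92 to 0 in footprints, from 10 to 0 in translational efficiency and from 1 to 0 in RNA. By their labels the libraries share only a number, and whether a number marks a true pair is not stated. In each comparison checked, at least 1 same-numbered pair had a correlation of deviations of 0.1 or less. In translational efficiency at 72 h the actD pairs had 0.17, 0.18 and 0.41, but a DMSO pair had 0.05. In RNA at 72 h each of the 6 libraries correlated best with its own number (0.07, 0.25 and 0.16). The main fits do not model such pairs.

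Counts over all genes depended on the setting. In RNA they were 0, 1 and 0 at 6 h, 72 h and 2 weeks, but 195, 590 and 171 with DESeq2, 1212 at 72 h in the 1 fit over all time points, 419 there without replicate 3 of both arms, 6 at 2 weeks with library totals, and 0 to 6, 0 to 3 and 2 to 10 without 1 library. The 72 h against 6 h difference in RNA had 4, but 154 with DESeq2, 0 with the block and 1 to 38 without 1 library. Footprints had 92 genes called, 7 with TMM before the filter, 5 with library totals, 0 with the looser filter and 0 to 282 without 1 library (282 without actD replicate 3). Translational efficiency at 72 h had 10, but 156 with DESeq2, 29 with TMM before the filter, 16 with TMM over both assays and 7 to 41 without 1 library. At 6 h it had 0, but 36 with DESeq2 and up to 5 without 1 library, and at 2 weeks 0, but 27 with treatment from the titles, 2 with DESeq2 and up to 3 without 1 library. Library totals moved the median of all genes from -0.02 to -0.18 in RNA at 2 weeks and from 0.11 to -0.55 in footprints at 6 h. The direction of GABARAPL1 and AMBRA1 in RNA at 6 h and 72 h was the same under all 14 alternatives, with adjusted p-values for GABARAPL1 at 6 h from 3.6e-14 to 0.52. Depth limits footprints: most members had too few counts to test.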
